A study of Homo sapiens with 32 samples.

Results

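SNAI1, SNAI2, ZEB1, ZEB2 and TWIST1 are transcription factors grouped as the Snail, ZEB and TWIST repressors. Their probe sets were chosen by name, as those to which the array annotation gives exactly 1 of these symbols. This gave 12 probe sets for the 5 genes, out of 19775 genes tested. Transcript levels were measured on 32 Affymetrix arrays from 2 established human lung cancer lines, A549 from an adenocarcinoma and H460a from a large cell carcinoma. Sample labels write H460a where the series text writes H460. Each line received vehicle or RO4929097 at 2 µM for 6 or 24 h, with 4 arrays in each of the 8 groups. RO4929097 is a gamma-secretase inhibitor (GSI) and blocks the protease that releases the active part of Notch receptors. No genotype, allele or second agent is named for any group, and the labels separate the groups of a line by treatment and time. Nothing in the labels says that replicates were separate cultures, so the spread that p-values rest on may be technical. The arrays read RNA from whole cultures, in which fewer cells with a transcript and less transcript per cell cannot be told apart.

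Snail and ZEB proteins are zinc finger repressors that bind E-box sequences in the control regions of epithelial genes, among them CDH1, which encodes the adhesion molecule E-cadherin. TWIST1 is a basic helix-loop-helix factor that binds E-boxes as a dimer. Their joint activity is best known from the epithelial-mesenchymal transition, in which epithelial cells lose junctions and gain motility, and Notch and TGF-beta signalling are among the inputs known to raise them.

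Values are log2 intensities, differences are on that scale, and ± marks the limma standard error of a difference unless SD is written. A difference passed when its limma p, adjusted by the Benjamini-Hochberg method over all genes, was under 0.05. A group mean under 6 is called near background. Mean intensity was 468 to 496 on the A549 vehicle arrays at 6 h, 496 to 589 on the A549 GSI arrays at 6 h, and 570 to 613 on the other 24. After the data were seen, 4 arrays were set apart, and results are also given without them: replicates 3 and 4 of A549 GSI at 6 h, replicate 3 of H460a GSI at 24 h and replicate 3 of H460a vehicle at 6 h. A549 GSI at 6 h split into replicates 1 and 2 at 496 and 531 and replicates 3 and 4 at 589 and 583, of which the latter pair is within the range of the other 24 arrays, so the split does not say which pair is unusual. H460a GSI at 24 h, replicate 3, had the lowest mean intensity of its group. In H460a vehicle at 6 h, replicate 3, the 3 prime actin probe set exceeded the 5 prime one by 2.19, against 0.14 to 0.42 in the other 31 arrays. Markers of lung and epithelial lines had means over 6 for 10 of 12 genes in every A549 group and 9 of 12 in every H460a group. EPCAM and SFTPD were near background in every group, and CDH1 in every H460a group. None of the 10 fibroblast or 9 leukocyte and endothelial markers passed in a comparison of GSI with vehicle, where 0.00506% to 13.1% of all genes passed. In A549 at 6 h 4 of the 10 and 1 of the 9 had an unadjusted limma p under 0.05, against 27.9% of all genes. PDGFRA, PDGFRB, DCN, COL1A1, COL1A2 and THY1 were over 6 in every group, as were CD3E, CD14, ITGAM, PECAM1 and VWF. A mean over 6 was therefore not limited to markers of epithelial lines. FAP, LUM, PTPRC, LYZ and CDH5 were near background in every group.

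HES1, a Notch target that reports on the compound, fell in A549 at both times. On the 4 A549 vehicle arrays at 6 h HES1 stood at 9.63, 9.63, 9.57 and 9.67, and on the GSI arrays at 7.72, 8.25, 8.03 and 7.99. The difference was -1.63 ± 0.13 at 6 h (limma, adjusted p = 8.67e-10) and -2.18 ± 0.13 at 24 h (adjusted p = 1.29e-13), with no overlap of the groups. In H460a its difference was -0.35 ± 0.13 at 6 h and -0.29 ± 0.13 at 24 h. Neither passed (limma, adjusted p = 0.324 and 0.823, unadjusted p = 0.0108 and 0.0311). HES1 means in H460a were 6.69 with vehicle and 6.35 with GSI at 6 h, and 6.44 and 6.15 at 24 h. In vehicle HES1 was higher in A549 than in H460a by 3.24 ± 0.090. The H460a means were thus close to the near-background level of 6. That level is not the floor of the arrays, since lower group means were read in H460a, such as 4.23 for CDH1 with GSI at 6 h. HES1 therefore does not show that H460a failed to respond. Its difference was nonetheless smaller in H460a than in A549. The GSI effect on HES1 in A549 minus that in H460a was -1.29 ± 0.18 at 6 h (limma, adjusted p = 0.000299). At 24 h it was -1.89 ± 0.18 (limma, adjusted p = 4.78e-08), and both passed. Whether the lower HES1 level in H460a limited its difference there was not tested. The 250 bases before the HES1 start site, at chr3:194135898-194136147 on the plus strand of GRCh38.p14 from RefSeq, are shown because they hold the letters GTGGGAA, which RBPJ, the DNA-binding partner of Notch, is known to bind. The match, in capitals, begins 85 bases before the start.

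HES1: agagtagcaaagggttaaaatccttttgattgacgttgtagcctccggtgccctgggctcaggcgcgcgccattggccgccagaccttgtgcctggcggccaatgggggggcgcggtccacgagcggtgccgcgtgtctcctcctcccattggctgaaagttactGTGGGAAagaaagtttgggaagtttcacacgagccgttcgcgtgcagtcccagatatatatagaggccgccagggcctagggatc

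The inhibitor lowered both Snail transcripts in A549 at 6 h and SNAI2 alone among the 5 repressors at 24 h by the same test. In A549 at 6 h 2 of 5 members passed, both lower, where 13.1% of all genes passed, 11.6% as higher and 1.51% as lower. After quantile normalization of all arrays the same 2 members passed there as lower, where 2.82% of all genes passed, 1.34% as higher and 1.48% as lower. In A549 at 24 h 1 of 5 passed, again lower, where 2.21% of all genes passed, 1.32% as higher and 0.885% as lower. In H460a 0 of 5 passed at either time by limma, where 0.0961% of all genes passed at 6 h (0.0708% higher, 0.0253% lower) and 0.00506% at 24 h. At an unadjusted p under 0.05 the H460a counts were 0 of 5 at 6 h and 1 of 5 at 24 h, beside 11.1% and 5.79% of all genes. Arrays of the groups did not overlap for 3 of 5 members in A549 at 6 h, 2 higher and 1 lower, where this held for 9.51% of all genes upward and 2.96% downward. At 24 h it held for 2 of 5, both lower, against 7.1% upward and 5.14% downward. In H460a it held for 0 of 5 at either time, against 4.34% upward and 2.39% downward at 6 h and 1.82% and 1.56% at 24 h. The median difference of the members was 0.24 in A549 at 6 h and -0.26 at 24 h, beside 0.02 and 0.01 over all genes. It was 0.04 in H460a at 6 h and -0.05 at 24 h, beside 0.00 for all genes at both times.

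**Figure D1:**
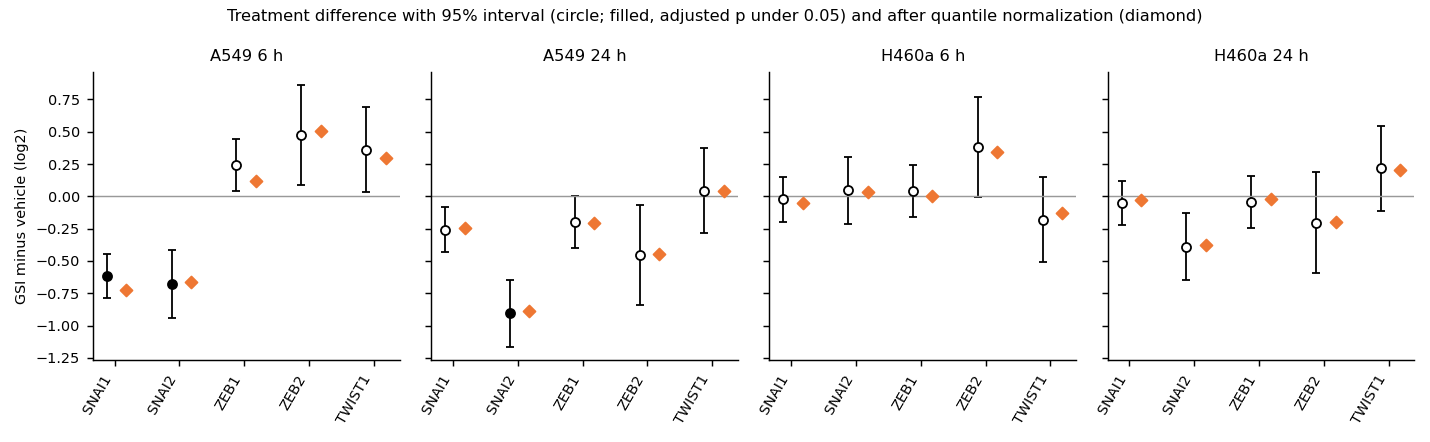
Difference between GSI and vehicle (log2 scale, y axis) for the 5 repressor genes in each line and time, as circles with the 95% limma interval (4 arrays a group), filled where the adjusted p is under 0.05. Diamonds give the difference after quantile normalization of all 32 arrays. Filled circles are SNAI1 and SNAI2 in A549 at 6 h and SNAI2 in A549 at 24 h.

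SNAI1 encodes Snail, the repressor first tied to loss of E-cadherin. Its single probe set, 219480_at, stood at 8.45, 8.32, 8.19 and 8.27 on the A549 vehicle arrays at 6 h. The GSI arrays at 6 h stood at 7.63, 7.78, 7.59 and 7.75. All 4 GSI arrays lay below all 4 vehicle arrays. The difference was -0.62 ± 0.084 (limma, adjusted p = 5.96e-05, n = 4 and 4), a level 1.54-fold lower with GSI. After quantile normalization of all arrays the SNAI1 difference was -0.73 (adjusted p = 3.96e-06). Without the 4 arrays set apart it was -0.60 (adjusted p = 0.00654).

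At 24 h the A549 vehicle arrays read 7.61, 7.94, 7.75 and 7.76 for SNAI1, and the GSI arrays 7.56, 7.42, 7.69 and 7.36. The groups overlapped, and the difference of -0.26 ± 0.084 did not pass (limma, adjusted p = 0.128, 95% interval -0.43 to -0.09). Array weights made it -0.27 with an adjusted p of 0.0223. Vehicle cells themselves had less SNAI1 at 24 h than at 6 h, so the 2 treatment comparisons start from different levels. The SNAI1 effect at 24 h minus that at 6 h was 0.36 ± 0.12 and did not pass (limma, adjusted p = 0.0752). After quantile normalization of all arrays it was 0.48 and passed (adjusted p = 0.0320).

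In H460a SNAI1 was level across the groups, with arrays between 7.61 and 8.02. The GSI difference was -0.02 at 6 h (95% interval -0.20 to 0.15) and -0.05 at 24 h (-0.23 to 0.12). Both intervals leave out a fall of the size measured in A549 at 6 h. The GSI effect in A549 minus that in H460a at 6 h was -0.59 ± 0.12 (limma, adjusted p = 0.0231). SNAI1 was the 1 member of 5 to pass this comparison, which 0.121% of all genes passed. The call was lost in 7 of the 16 fits that left out 1 array (adjusted p from 0.00971 to 0.0833 over the 16). These left out A549 vehicle replicate 1, A549 GSI replicate 3, H460a vehicle replicates 2 or 3, or H460a GSI replicates 1, 3 or 4. It was also lost without the 4 arrays set apart (-0.55, adjusted p = 0.300). With every probe set tested on its own, 0 of 12 passed (0.033% of all probe sets; 3 of 12 at an unadjusted p under 0.05, limma).

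SNAI2 encodes Slug, the second Snail family repressor, which is expressed in many epithelial stem and tumour cells. Probe set 213139_at stood at 6.79, 6.88, 6.53 and 6.69 on the A549 vehicle arrays at 6 h and at 6.10, 5.68, 6.60 and 5.79 on the GSI arrays. GSI replicate 3, which is 1 of the 4 arrays set apart, lay inside the vehicle range, and the other 3 lay below it. The difference was -0.68 ± 0.13 (limma, adjusted p = 0.00256, n = 4 and 4). Without that array it was -0.86, and fitting the 8 arrays of the comparison alone left it at -0.68 with an adjusted p of 0.0676.

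At 24 h A549 vehicle arrays read 6.25, 6.51, 6.57 and 6.30 for SNAI2, and GSI arrays 5.54, 5.58, 5.54 and 5.35. Every GSI array lay below every vehicle array. SNAI2 fell by 0.91 ± 0.13 on the log2 scale (limma, adjusted p = 2.14e-05), which is 1.87-fold. The GSI mean of 5.50 is in the range where signals are treated as near background. This call was kept in each of the 8 fits that left out 1 array (difference -0.96 to -0.85) and in the fit without the 4 arrays set apart (adjusted p = 7.33e-07).

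H460a held more SNAI2 than A549, with vehicle arrays at 7.62, 7.46, 7.76 and 7.70 at 6 h and GSI arrays at 7.57, 7.75, 7.70 and 7.71. The groups overlapped, and the difference was 0.05 ± 0.13 (limma, adjusted p = 0.933). At 24 h vehicle arrays read 8.01, 8.17, 7.73 and 8.01, and GSI arrays 7.53, 7.70, 7.38 and 7.75. Here 3 GSI arrays lay below all vehicle arrays and 1 did not. The difference of -0.39 ± 0.13 did not pass (limma, adjusted p = 0.536, unadjusted p = 0.00453, 95% interval -0.65 to -0.13), in a comparison where 1145 genes had an unadjusted p under 0.05. The effect in A549 minus that in H460a was -0.73 ± 0.18 at 6 h (adjusted p = 0.0805) and -0.51 ± 0.18 at 24 h (adjusted p = 0.288). Without the 4 arrays set apart both passed, at -0.92 (adjusted p = 0.0166) and -0.58 (adjusted p = 0.0375). Whether a difference between the lines passed thus depended on those arrays, but not on them alone. At 6 h the call changed in 4 of 11 alternatives and in 2 of 16 fits that left out 1 array. The sign did not change. None of the 5 members passed at 24 h with all arrays (0 of 5, against 0.637% of all genes; 1 of 5 at an unadjusted p under 0.05, against 9.02%).

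**Figure D2:**
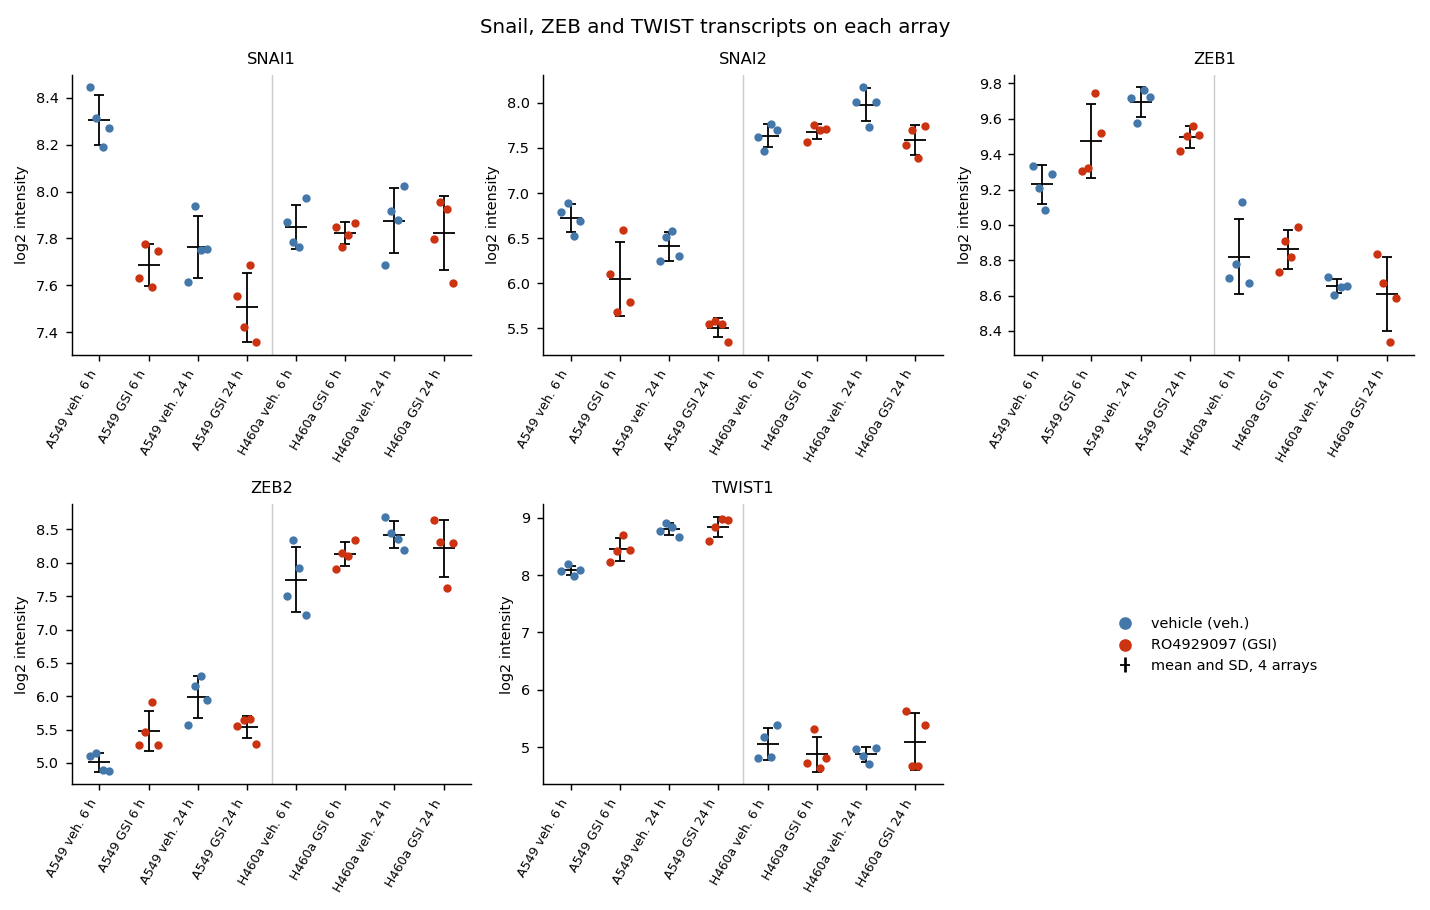
Log2 intensity (y axis, with its own range in each panel) of the 5 repressor genes on each of the 32 arrays, by line, treatment and time (x axis). Points are arrays, blue for vehicle and red for GSI, and black marks give the mean and SD of 4 arrays. In A549 SNAI1 is highest in vehicle at 6 h and SNAI2 is lowest with GSI at 24 h, while TWIST1 arrays lie between 7.99 and 8.98 in A549 and between 4.64 and 5.63 in H460a.

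ZEB1 encodes a zinc finger homeodomain repressor of epithelial genes and of the miR-200 family of microRNAs. Its probe set 212764_at, used in the gene fit, stood at 9.33, 9.21, 9.08 and 9.29 in A549 vehicle at 6 h and at 9.30, 9.32, 9.75 and 9.52 with GSI. The 2 highest arrays are replicates 3 and 4, the brighter pair of that group. The difference of 0.24 ± 0.098 did not pass (limma, adjusted p = 0.0938), and it was 0.08 without the arrays set apart and 0.12 after quantile normalization. Leaving out GSI replicate 1 alone gave 0.30, with an adjusted p of 0.0399.

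At 24 h A549 vehicle arrays read 9.72, 9.57, 9.77 and 9.72 for ZEB1, and GSI arrays 9.42, 9.50, 9.56 and 9.51. All GSI arrays lay below all vehicle arrays, but by a narrow gap, and the difference of -0.20 ± 0.098 did not pass (limma, adjusted p = 0.436, 95% interval -0.40 to 0.00). In H460a the ZEB1 difference was 0.04 ± 0.098 at 6 h and -0.05 ± 0.098 at 24 h. The second ZEB1 probe set, 212758_s_at, differed by less than its array spread in A549: vehicle read 7.95 to 8.29 at 6 h and GSI 7.95 to 8.19. The third, 210875_s_at, ranged from 7.05 to 7.50 in those vehicle arrays and from 7.30 to 7.95 in the GSI arrays, again with replicates 3 and 4 highest. The fourth, 239952_at, was near background in all 8 groups, with means from 5.51 to 5.65.

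ZEB2 encodes the other ZEB protein, also known as SIP1, which binds SMAD proteins. Its probe set 203603_s_at was near background in A549. A549 vehicle read 5.10, 5.15, 4.90 and 4.88 at 6 h and 5.57, 6.15, 6.30 and 5.94 at 24 h. With GSI the arrays read 5.27, 5.47, 5.91 and 5.27 at 6 h and 5.56, 5.64, 5.66 and 5.29 at 24 h. GSI arrays lay above vehicle at 6 h and overlapped it at 24 h, with differences of 0.47 ± 0.19 and -0.45 ± 0.19 that did not pass (limma, adjusted p = 0.0958 and 0.315). The effect at 24 h minus that at 6 h was -0.93 ± 0.27 (limma, adjusted p = 0.0484), the 1 pass among 5 members where 3.71% of all genes passed. It was lost in 12 of the 16 fits that left out 1 array, all but those without A549 vehicle replicate 1 at either time or GSI replicates 1 or 2 at 6 h. After quantile normalization of all arrays ZEB2 did not pass (adjusted p = 0.0620) and SNAI1 passed instead. The second ZEB2 probe set, 228333_at, had means of 4.93 for vehicle and 5.10 for GSI at 6 h, and of 5.31 and 5.40 at 24 h, so GSI was on the higher side at both times. In H460a 0 of 5 members passed in the effect at 24 h minus that at 6 h, where 0.0101% of all genes did (limma; 2 of 5 at an unadjusted p under 0.05, SNAI2 and ZEB2, against 7.62% of all genes).

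In H460a ZEB2 was well above that range. Vehicle arrays read 7.50, 8.34, 7.92 and 7.22 at 6 h, with an SD of 0.488, and GSI arrays 7.90, 8.15, 8.11 and 8.34. At 24 h vehicle arrays read 8.69, 8.45, 8.36 and 8.20, and GSI arrays 8.64, 8.31, 7.62 and 8.30. The groups overlapped at both times, with differences of 0.38 ± 0.19 and -0.20 ± 0.19 (limma, adjusted p = 0.453 and 0.990). For 228333_at at 24 h the difference was -0.34 ± 0.12 (adjusted p = 0.688 over all probe sets). It was -0.16 without the arrays set apart, of which GSI replicate 3 had the lowest value, 7.36. The other 3 ZEB2 probe sets, 235593_at, 233031_at and 233033_at, had means under 6 in all 8 groups. Over all 12 probe sets, each tested on its own, 2 passed in A549 at 6 h (5.61% of all probe sets did) and 1 at 24 h (1.07%), and these were the SNAI1 and SNAI2 probe sets already given. In H460a 0 of 12 passed at 6 h (0.0421% of all probe sets; 0 of 12 at an unadjusted p under 0.05) and 0 of 12 at 24 h (0% of all; 2 of 12 unadjusted).

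**Figure D3:**
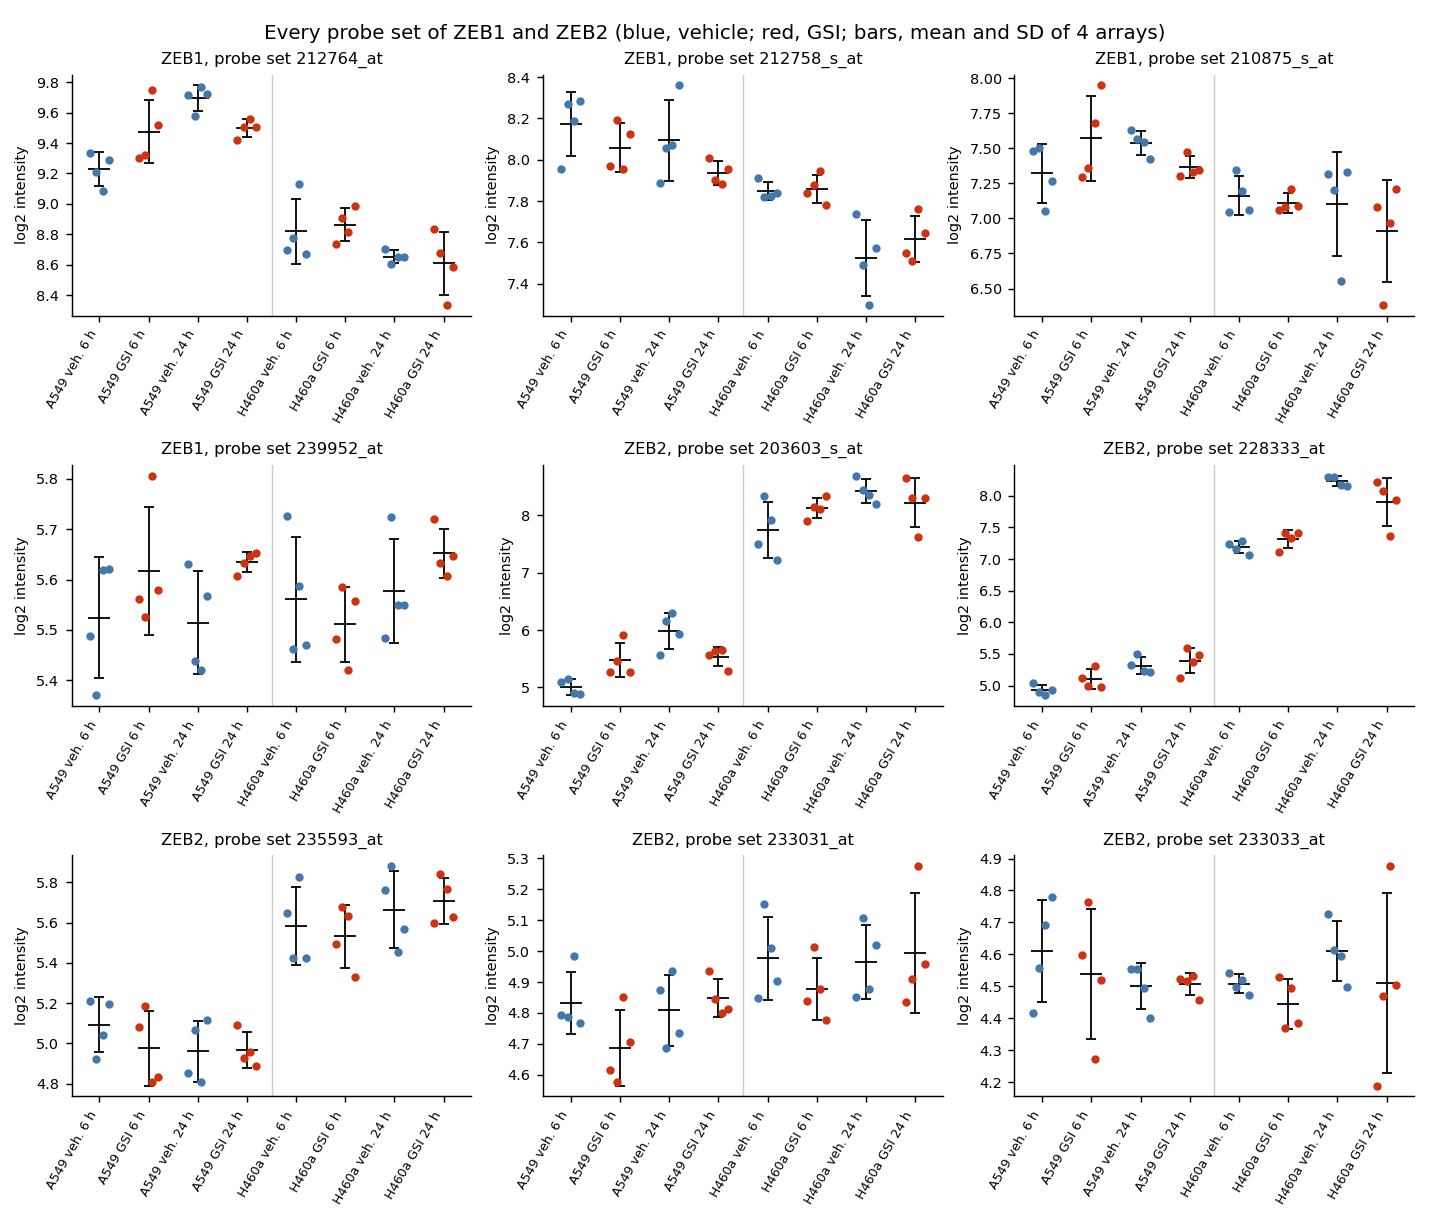
Log2 intensity (y axis, own range in each panel) of the 4 ZEB1 and 5 ZEB2 probe sets on each array, by line, treatment and time (x axis), with blue for vehicle, red for GSI and black marks for the mean and SD of 4 arrays. Probe sets 203603_s_at and 228333_at of ZEB2 both lie higher in H460a than in A549, and 239952_at, 235593_at, 233031_at and 233033_at stay under 6 in every group mean.

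Promoter sequence is shown for ZEB1 and ZEB2, the 2 members matched in the RefSeq table of GRCh38.p14. The window is the 250 bases before the start site, for ZEB1 the most upstream of its 7 listed start sites. Capitals mark the E-box CAGGTG or its other strand CACCTG, the letters that Snail and ZEB proteins are known to bind. ZEB1 (chr10:31318167-31318416, plus strand) holds 1 match, 57 bases before the start, and ZEB2 (chr2:144520120-144520369, minus strand) holds 0. Neither window holds GTGGGAA or TTCCCAC.

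ZEB1: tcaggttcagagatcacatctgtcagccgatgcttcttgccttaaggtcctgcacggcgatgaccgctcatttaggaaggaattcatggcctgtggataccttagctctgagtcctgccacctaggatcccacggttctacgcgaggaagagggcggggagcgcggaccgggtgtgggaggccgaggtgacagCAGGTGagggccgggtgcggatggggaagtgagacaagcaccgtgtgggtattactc
ZEB2: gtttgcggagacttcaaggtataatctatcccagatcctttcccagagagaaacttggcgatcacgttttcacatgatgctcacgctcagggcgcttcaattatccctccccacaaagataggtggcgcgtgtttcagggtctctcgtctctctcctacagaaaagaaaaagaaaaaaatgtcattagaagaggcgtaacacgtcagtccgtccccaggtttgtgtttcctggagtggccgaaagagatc

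Of 27305 genes with a window in that table, 17.5% hold the E-box and 5.48% hold GTGGGAA on either strand. Among the listed epithelial genes that the repressors act on, 20 of 45 have a window and 10 of those 20 hold the E-box. That list was drawn up from genes known to be repressed, so its share is a description. CRB3, a polarity protein of epithelial cells, is shown because its window (chr19:6464021-6464270, plus strand) holds the most matches on the list, 5.

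CRB3: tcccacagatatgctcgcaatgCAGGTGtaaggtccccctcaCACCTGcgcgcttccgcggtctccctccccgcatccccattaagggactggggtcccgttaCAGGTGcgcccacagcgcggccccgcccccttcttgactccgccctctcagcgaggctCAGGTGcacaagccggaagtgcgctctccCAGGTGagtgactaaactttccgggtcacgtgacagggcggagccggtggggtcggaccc

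CRB3, named for its sequence and not for its values, differed by -0.07 ± 0.077 in A549 at 6 h, 0.00 ± 0.077 in A549 at 24 h, 0.02 ± 0.077 in H460a at 6 h and 0.09 ± 0.077 in H460a at 24 h. None of these passed (limma, adjusted p from 0.601 to 0.996).

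TWIST1 marks the mesoderm in the embryo and was measured above background in A549 alone. Probe set 213943_at read 8.07, 8.19, 7.99 and 8.09 in A549 vehicle at 6 h and 8.22, 8.42, 8.70 and 8.44 with GSI. The GSI arrays all lay above vehicle, yet the difference of 0.36 ± 0.16 did not pass (limma, adjusted p = 0.134). It was 0.24 without the arrays set apart. At 24 h vehicle read 8.77, 8.91, 8.83 and 8.66 and GSI 8.60, 8.84, 8.98 and 8.95, a difference of 0.04 ± 0.16. In H460a TWIST1 was near background, with arrays from 4.64 to 5.63. Its close relative TWIST2 had group means from 8.98 to 9.67 and passed in none of the 4 treatment comparisons, with differences from 0.08 to 0.18. SNAI3, the third Snail family gene, was near background throughout and did not pass either.

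Levels also differed between the times in vehicle cells. Between 6 and 24 h in vehicle A549, 5 of 5 members passed, 3 higher and 2 lower, where 44.2% of all genes did (29.2% higher, 15% lower). ZEB2 rose by 0.98 ± 0.19 (limma, adjusted p = 9.26e-05), from the near-background values given above, and the mean of its probe sets gave 0.22 (adjusted p = 0.00448). TWIST1 rose by 0.71 ± 0.16 (adjusted p = 0.000573) and ZEB1 by 0.47 ± 0.098 (adjusted p = 0.000247). The other ZEB1 probe sets over 6 went in different directions. The means at 6 and 24 h were 7.32 and 7.54 for 210875_s_at, and 8.17 and 8.09 for 212758_s_at. After quantile normalization of all arrays the latter had 8.27 and 8.05. SNAI1 gave -0.54 ± 0.084 (adjusted p = 4.69e-06) and SNAI2 -0.31 ± 0.13 (adjusted p = 0.0460). Arrays of the 2 times did not overlap for SNAI1, ZEB1, ZEB2 and TWIST1, while those of SNAI2 did. Non-overlap held for 29.8% of all genes upward and 12.9% downward.

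Both this comparison and the 6 h treatment comparison use the same 4 A549 vehicle arrays at 6 h, which have the lowest mean intensity of the series. After quantile normalization SNAI1 gave -0.67, ZEB2 1.05, TWIST1 0.57 and ZEB1 0.25, and these passed. SNAI2 then gave -0.26 with an adjusted p of 0.125, and it was lost in 5 of 8 fits that left out 1 array (vehicle replicates 1, 2 or 4 at 6 h, 1 or 4 at 24 h). The mean of its probe sets gave ZEB1 0.15 (adjusted p = 0.0628). After quantile normalization 3 of 5 members passed as higher and 1 as lower, where 38.7% of all genes did (16.6% higher, 22.1% lower). In the same vehicle arrays as deposited, 1 of 10 fibroblast markers passed as higher and 6 as lower, where 29.2% and 15% of all genes did. Their summed intensity was 1580 to 1772 at 6 h and 1429 to 1504 at 24 h. Of those markers 3 were under 6 at 6 h, LUM, COL3A1 and FAP, and 4 at 24 h, with DPT added. Of 9 leukocyte and endothelial markers 1 passed as higher and 4 as lower, with a summed intensity of 1087 to 1186 at 6 h and 1101 to 1168 at 24 h. Their part in the result was not tested.

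In H460a vehicle 2 of 5 members passed between 6 and 24 h, both higher, where 30.4% of all genes passed (15.1% higher, 15.3% lower). Arrays of the times overlapped for 5 of 5 members, where non-overlap held for 13.8% of all genes upward and 14.5% downward. ZEB2 rose by 0.68 ± 0.19 (limma, adjusted p = 0.00547; 0.38 with the mean of its probe sets) and its second probe set by 1.05 ± 0.12 (adjusted p = 4.14e-08 over all probe sets). That second probe set separated the times cleanly, with 7.24, 7.16, 7.29 and 7.06 at 6 h and 8.31, 8.30, 8.18 and 8.16 at 24 h. SNAI2 rose by 0.35 ± 0.13 (adjusted p = 0.0379), opposite in sign to A549, but it had an adjusted p of 0.0562 after quantile normalization and was lost in 5 of 8 fits that left out 1 array (vehicle replicates 1 or 2 at 6 h, 1, 2 or 4 at 24 h). SNAI1 differed by 0.03, ZEB1 by -0.17 and TWIST1 by -0.18, and these did not pass. The ZEB1 probe set 212758_s_at gave -0.33 ± 0.090 (adjusted p = 0.00754), from 7.85 to 7.52, so the ZEB1 probe sets did not give the same call. In these arrays 1 of 10 fibroblast markers and 2 of 9 leukocyte and endothelial markers passed, all higher. The summed intensity of the latter was 1032 to 1140 at 6 h and 1683 to 2045 at 24 h, and of the former 1415 to 1628 and 1583 to 1842. Their part in the result was not tested.

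Levels of the repressors differed between the lines. Between A549 and H460a in vehicle, over both times, 5 of 5 members passed, 3 higher in A549 and 2 lower, where 56.7% of all genes did (28.8% higher, 27.9% lower). TWIST1 was higher in A549 by 3.47 ± 0.11 (limma, adjusted p = 1.33e-23), a fold of 11.1 against a near-background level. ZEB2 was lower in A549, at -2.59 ± 0.135 on 203603_s_at and -2.59 ± 0.086 on 228333_at (-1.19 with the mean of its probe sets), as was SNAI2 at -1.24 ± 0.090. ZEB1 was higher by 0.73 ± 0.069 (0.36 with the mean of its probe sets) and SNAI1 by 0.17 ± 0.060. The SNAI1 gap did not pass once arrays were centred on their medians (0.09, adjusted p = 0.192). Ordered by group mean, SNAI1 ran from 7.51 in A549 GSI at 24 h to 8.31 in A549 vehicle at 6 h. The 4 H460a groups had means between 7.82 and 7.88, and their arrays overlapped throughout. SNAI2 ran from 5.50 in A549 GSI at 24 h through 6.04, 6.41 and 6.72 in the other A549 groups to 7.59, 7.64, 7.68 and 7.98 in H460a. Arrays of all 4 H460a groups overlapped. ZEB1 ran from 8.61 to 8.86 over the H460a groups and then 9.23, 9.47, 9.50 and 9.70 in A549, where arrays of GSI at 6 h overlapped those of each of the other 3 groups. ZEB2 ran from 5.01 to 5.99 in A549 and from 7.74 to 8.42 in H460a, and TWIST1 from 4.88 to 5.09 in H460a and from 8.08 to 8.84 in A549.

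Genes that the repressors are known to act on, or that mark the mesenchymal state, also differed between the lines. CDH1 was higher in A549 than in H460a by 5.40 ± 0.063, and CDH2, the mesenchymal cadherin, by 1.51 ± 0.059. VIM and FN1, a filament protein and a matrix protein of mesenchymal cells, were lower in A549, at -0.34 ± 0.046 and -0.83 ± 0.054. All 4 passed (limma, adjusted p at most 6.60e-08).

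With GSI in A549 at 6 h CDH1 read 9.81, 9.89, 10.16 and 9.95 against 9.59, 9.74, 9.67 and 9.75 with vehicle, a difference of 0.27 ± 0.089 (limma, adjusted p = 0.0442). It was 0.12 after quantile normalization (adjusted p = 0.449) and 0.16 without the arrays set apart (adjusted p = 0.609). VIM and FN1 also passed as higher, by 0.28 and 0.24, and neither passed after quantile normalization, where FN1 was -0.04. At 24 h CDH1 differed by 0.19 ± 0.089, VIM by -0.07, CDH2 by 0.10 and FN1 by -0.10, and none passed. In H460a at 6 h CDH1 gave -0.57 ± 0.089 (adjusted p = 0.00192), from 4.80 to 4.23, near background in both groups.

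**Figure D4:**
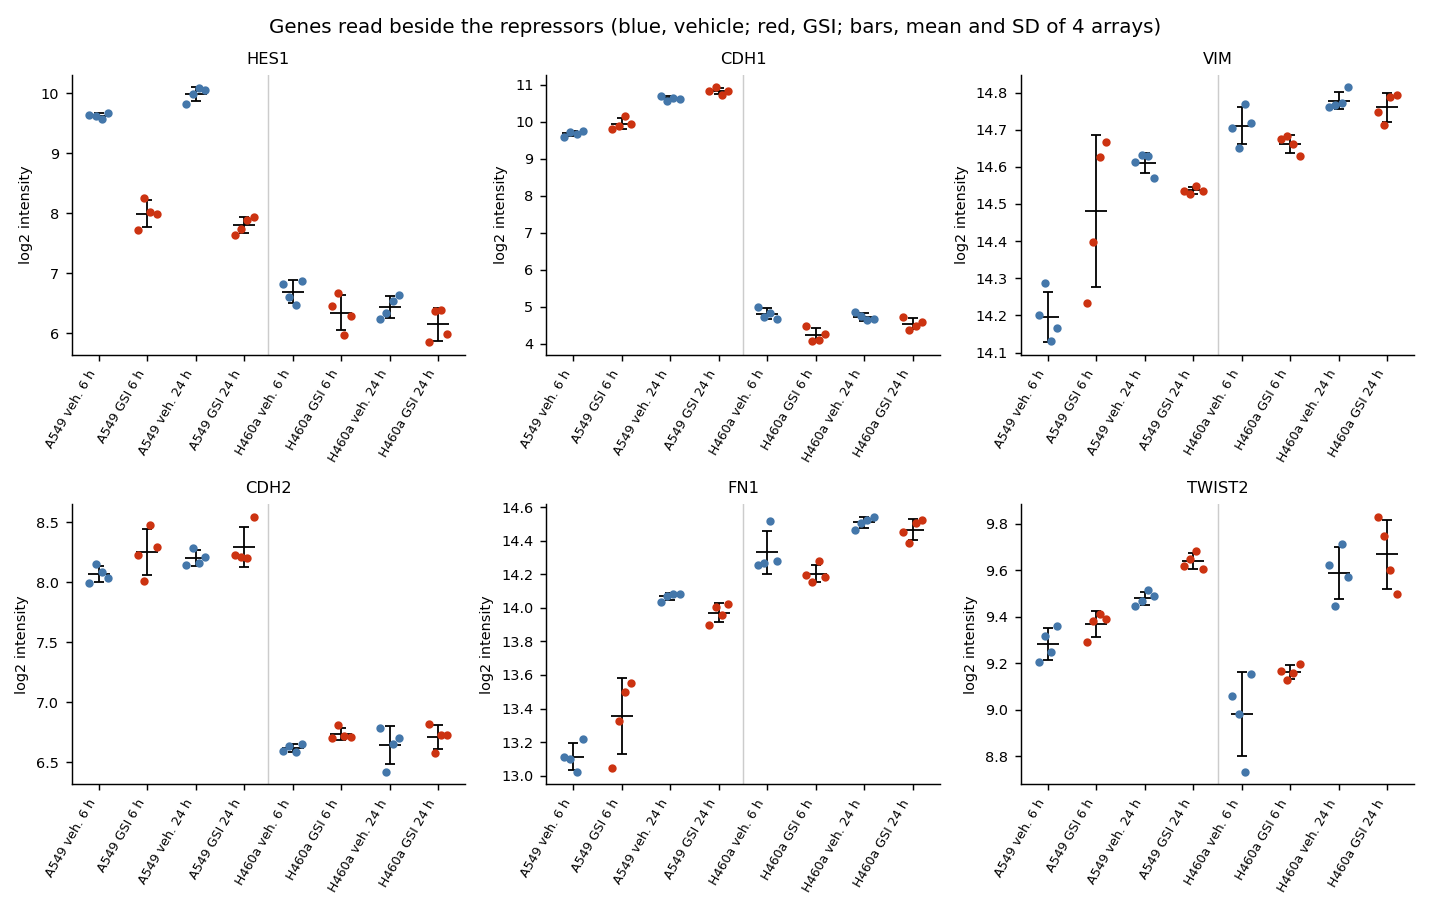
Log2 intensity (y axis, own range in each panel) on each array of HES1, CDH1, VIM, CDH2, FN1 and TWIST2, by line, treatment and time (x axis), with blue for vehicle, red for GSI and black marks for the mean and SD of 4 arrays. HES1 is lower with GSI in A549 at both times, and CDH1 lies between 9.59 and 10.94 in A549 with H460a group means from 4.23 to 4.80.

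Genes around the repressors were read from 11 lists of 229 genes, members and markers included, of which 216 were measured. The lists were drawn up with earlier results of these data known, so their counts are descriptions. In A549 at 24 h 2 of the 216 passed as higher and 21 as lower, where 1.32% and 0.885% of all genes did. Of the TGF-beta responsive genes 0 of 21 passed as higher and 11 as lower, with a median of -0.30. PMEPA1, a SMAD feedback protein, gave -1.74 ± 0.074 and TNFAIP6, a hyaluronan-binding protein, -1.72 ± 0.11. KLF10, a TGF-beta induced zinc finger factor, gave -0.83 ± 0.10 and JUNB, an AP-1 subunit, -0.81 ± 0.066. Among upstream signals 0 of 34 passed as higher and 6 as lower, with a median of -0.09. Beside HES1 these include TGFBR1, a TGF-beta receptor, at -0.84 ± 0.086, HEY1, a Notch target, at -0.62 ± 0.078, and BMP2, a ligand, at -0.48 ± 0.12.

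In the same comparison, where 2.21% of all genes passed, 3 of 38 mesenchymal genes passed, all lower. SPOCK1, a proteoglycan, gave -1.06 ± 0.078, VGLL3, a TEAD cofactor, -0.88 ± 0.12 and COL5A1, a collagen chain, -0.81 ± 0.099. Of the 42 epithelial genes 2 passed, both higher: PPL, a desmosomal plakin, by 0.72 ± 0.12, and KRT19, a keratin, by 0.62 ± 0.11. The median of the epithelial genes was 0.03 and of the mesenchymal genes -0.03, beside 0.01 over all genes. None of 24 corepressors and partners, 23 kinases, ligases and phosphatases, and 13 other factors of the transition passed by limma. At an unadjusted p under 0.05 these lists had 4, 0 and 6 genes, where 11.6% of all genes did.

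In A549 at 6 h 33 of the 216 listed genes passed as higher and 12 as lower, and after quantile normalization 2 were higher. Over all genes that comparison called 2301 higher (11.6%) and 299 lower (1.51%), and 265 (1.34%) and 293 (1.48%) after quantile normalization. Of the TGF-beta responsive genes 3 of 21 passed as higher and 3 as lower, and of the upstream signals 5 of 34 as higher and 6 as lower. After quantile normalization these were 1 and 6, and 0 and 7. The higher calls include TGFBR2 (0.45 ± 0.080), a TGF-beta receptor, MET (0.35 ± 0.093), a growth factor receptor, and TGIF1 (0.19 ± 0.065), a SMAD corepressor. The lower calls include the TGF-beta responsive genes JUNB (-0.71 ± 0.066), ANGPTL4 (-0.58 ± 0.080), an inhibitor of lipoprotein lipase, and PMEPA1 (-0.58 ± 0.074). They also include the upstream signals HES1, HEY1 (-0.41 ± 0.078), GLI1 (-0.41 ± 0.14), the Hedgehog effector, and IL6 (-0.40 ± 0.0998), a cytokine. These passed after quantile normalization too, but GLI1 and IL6 did not without the 4 arrays set apart (adjusted p = 0.416 and 0.194). ID2, an inhibitor of helix-loop-helix factors, rose at 6 h (0.62 ± 0.085) and fell at 24 h (-0.60 ± 0.085).

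Higher calls at 6 h included 7 of 24 corepressors and partners, 8 of 23 kinases, ligases and phosphatases, and 5 of 38 mesenchymal genes. Over all genes 11.6% passed as higher there. The mesenchymal calls include CD44 (0.40 ± 0.093) and SPARC (0.39 ± 0.12). After quantile normalization 1 of the corepressors and partners, KAT2B, an acetyltransferase, passed (0.49 ± 0.11 as deposited, 0.41 after). Of the 23 and of the 38, 0 passed, where 1.34% of all genes did as higher. FBXO11 and FBXL5, ubiquitin ligase subunits that target Snail, had 0.43 ± 0.10 and 0.36 ± 0.093 as deposited and 0.30 and 0.23 after. Of the epithelial genes 4 of 42 passed as higher, CXADR (0.38), PATJ (0.32), CDH1 and PALS1 (0.26), and 1 as lower, GRHL2 (-0.30), and 0 passed after quantile normalization. In H460a 1 of the 216 passed at 6 h, CDH1, and 0 at 24 h (limma; 33 and 22 at an unadjusted p under 0.05, where 11.1% and 5.79% of all genes were).

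**Figure D5:**
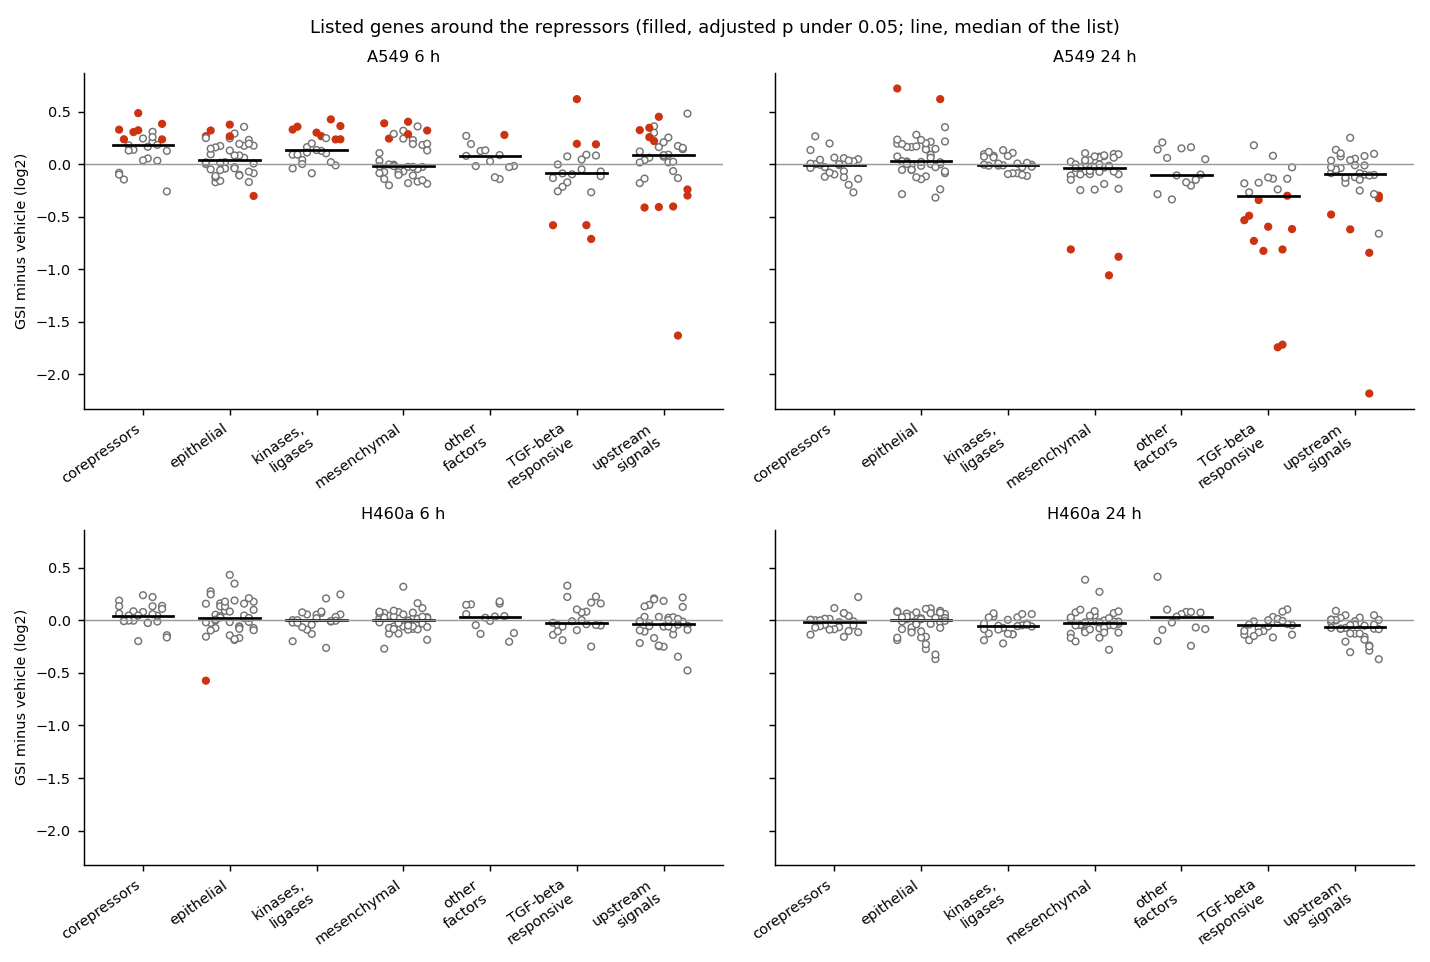
Difference between GSI and vehicle (log2 scale, y axis) for each measured gene of 7 lists around the repressors (x axis), in each line and time. Filled points passed at an adjusted p under 0.05, and lines are list medians. In A549 at 24 h the filled points of the TGF-beta responsive and upstream lists lie below 0, and in H460a the 1 filled point is CDH1.

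The genes whose levels ran most like each member were sought among 9886 genes over the 16 arrays of the line with more of that member, after quantile normalization within the line. These 16 arrays share their groups, so each correlation is a description. For SNAI1 in A549 the highest were SNHG17 (r = 0.922), ZNF469 (0.915) and MED15 (0.914), and the lowest EIF3F (-0.921), TGFBR3 (-0.913) and IL6R (-0.904). As deposited, ZNF469 kept 0.913, while MED15 had 0.489 and SNHG17 -0.225. For TWIST1 in A549 the highest were SLC1A1 (0.958), FBXO3 (0.956) and EYA4 (0.944), and the lowest FGD2 (-0.965), PTOV1-AS2 (-0.962) and TIRAP (-0.959). For ZEB1 in A549 they were ZFYVE16 (0.933), EFR3A (0.922) and TRNT1 (0.907), with CLPTM1L (-0.898), CTSA (-0.897) and ZNF672 (-0.893) lowest. CLPTM1L and CTSA had positive values as deposited (0.625 and 0.458), and ZNF672 had -0.341. For SNAI2 in H460a they were RHOH (0.866), SCAPER (0.808) and UBXN7 (0.775), with ZNF335 (-0.917), RASAL3 (-0.883) and SMOX (-0.851) lowest. For ZEB2 in H460a they were NDUFA5 (0.915), APPL1 (0.906) and NR1D2 (0.898), with LOC283788 (-0.866), L3MBTL2 (-0.864) and PVR (-0.857) lowest.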

How the data were processed

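The 32 arrays carry 1 intensity per probe set, with a range that shows a linear scale, summarised by the authors, who used RMA according to the submitters' processing notes. The sources used here do not give its version or a genome build. Deposited intensities were log2-transformed without further scaling, which can leave the lower mean intensity of the A549 6 h arrays in the differences. Quantile normalization and other alternatives were therefore tried. The 62 control probe sets were left out. Of the rest, 41091 had 1 gene symbol in the platform annotation, 1801 several and 11721 none. The probe set with the highest mean stood for each of 19775 genes, and a second fit used all 54613 probe sets.

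A mean for each of the 8 groups was estimated by lmFit and eBayes (limma 3.58.1, R 4.3.3), with Benjamini-Hochberg adjustment within each contrast, after the fit was tested on simulated data. The median standard error of 0.087 for a comparison of GSI with vehicle reflects both the number of arrays and the spread between them. Members, lists and tests were chosen with earlier results of these data known. Named genes are the members, TWIST2, SNAI3, CDH1, VIM, CDH2, FN1, HES1, up to 4 passing genes per list, direction and treatment comparison, and 3 most and 3 least correlated genes per member. CRB3 was added for its sequence, and markers are named by level. Leaving out the 4 arrays set apart was chosen after seeing the data. A description field on embryos was not used. Python 3.11.15, pandas 2.3.3 and matplotlib 3.10.9 served for counts, sequences and plots.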

Additional observations from a re-analysis of the deposited data

Results flagged for a closer look

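Among 96 groups of 4 arrays (12 probe sets in 8 groups), 3 held an array far from the other 3 by Dixon's test, and chance gives about 1 in 20. SNAI2 in A549 GSI at 24 h, replicate 4, read 5.35 against 5.54 to 5.58. It lies in the direction of the called difference, which was -0.85 without it. ZEB1 probe set 210875_s_at in H460a vehicle at 24 h, replicate 3, read 6.55 against 7.20 to 7.33, and ZEB2 probe set 233031_at in A549 vehicle at 6 h, replicate 3, read 4.98 against 4.77 to 4.79.

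The SNAI1 effect of GSI at 6 h differed between lines, by -0.59 (limma, adjusted p = 0.0231), a call lost in 3 of 12 alternatives and in 7 of 16 fits that left out 1 array. The ZEB2 effect of GSI in A549 differed between times, by -0.93 (limma, adjusted p = 0.0484), at levels near background. That call was lost in 9 of 11 alternatives, over which it ran from -0.95 to -0.13, and in 12 of 16 fits that left out 1 array.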

How the results depend on the processing

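SNAI1 in A549 at 6 h and SNAI2 in A549 at 24 h kept their direction and passed in each of the 12 and 11 alternatives that tested them, with leave-one-out ranges of -0.66 to -0.57 and -0.96 to -0.85. SNAI2 in A549 at 6 h ranged from -0.86 to -0.56 and missed the threshold (-0.68, adjusted p = 0.0676) when the 8 arrays were fitted alone, which left 1 member passing there. Array weights brought SNAI1 in A549 at 24 h past it (-0.27, adjusted p = 0.0223), and leaving out the 4 arrays set apart with quantile normalization brought ZEB1 in A549 at 24 h past it (-0.20, adjusted p = 0.0230), so that 2 members passed.

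Counts of members moved as follows. With genes over the median level alone, SNAI2, ZEB2 and TWIST1 were not tested, and counts were 1 in A549 at 6 h, 0 in A549 at 24 h, 2 for the A549 effect at 24 minus 6 h, 2 for time in A549, 0 for time in H460a and 2 between lines. For time in H460a, 1 passed with either quantile normalization, with centring, or with every probe set. For time in A549, 3 passed with the mean of all probe sets. For the A549 effect at 24 minus 6 h, 0 passed with centring, the mean of probe sets, every probe set, the replicate block, and without the arrays set apart with or without quantile normalization, and 2 with the comparison's arrays alone or array weights. For the effect in A549 minus H460a, 0 passed at 6 h with every probe set, 2 with trend and robust or array weights, and 1 at 24 h without the arrays set apart, with or without quantile normalization. Listed genes called higher in A549 at 6 h numbered 2 under either quantile normalization and 1 without the arrays set apart, and those at 24 h numbered 4 without them. The causes were not tested.

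Leaving out each array in turn gave 2 to 57 listed genes higher in A549 at 6 h, with 2, 4 and 5 without GSI replicate 3, GSI replicate 4 and vehicle replicate 3, 21 without vehicle replicate 4 and 57 without GSI replicate 1. It gave 1 to 2 of 12 probe sets in A549 at 6 h, with 1 without GSI replicate 4, 0 to 3 members for the A549 effect at 24 minus 6 h, 0 to 2 for the line difference at 6 h and 1 to 2 for time in H460a. ZEB1 in A549 at 6 h gave 0.15 to 0.30.

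Replicate numbers gave no clear pairing of the arrays. Correlations of same-numbered deviations ran from -0.35 to 0.32 over 16 pairs, 5 of them over 0.1. Of the 16 GSI arrays 6 were closest to their own number. These values cannot exclude that arrays of the same number shared a culture or day. The replicate block changed no treatment call, and moved ZEB2 in the A549 effect at 24 minus 6 h to an adjusted p of 0.0561 and SNAI2 over time in A549 to 0.0570. Near-background signals limit ZEB2 in A549, TWIST1 in H460a and CDH1 in H460a.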
